A study of Mus musculus with 28 samples.

Results

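Under dasatinib plus quercetin, the hippocampus of 3xTg mice differed from that of wild-type (WT) mice in 500 of the 16369 genes tested (3.05%), of which 275 were higher and 225 were lower in 3xTg. The comparison takes the 4 libraries labelled 3xTg DQ and the 4 labelled BL6129 DQ, 8 of the 28 libraries of the series, and all genes that passed a filter on low counts. DQ is dasatinib, a kinase inhibitor, given with quercetin, a plant flavonoid. The 3xTg group carried the 3xTg genotype and received DQ, and the WT group (BL6129) lacked it and received DQ as well, so all 8 libraries share the treatment and differ in genotype. All libraries came from hippocampus of female mice. Age, dose and schedule are not given in the labels used here. The other groups, also of 4 libraries each, were 3xTg with navitoclax (NAVI, ABT263), 3xTg with the vehicles labelled VehN and VehD, WT with navitoclax and WT with a vehicle labelled Veh.

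The 3xTg line models Alzheimer's disease with human transgenes for amyloid precursor protein and tau, driven in neurons by Thy1 promoter cassettes. Amyloid deposits are surrounded by microglia, the resident macrophages of the brain, which then turn on a set of genes known as the disease-associated programme, and by astrocytes that raise intermediate filament genes. Dasatinib with quercetin is used as a senolytic, a treatment meant to remove senescent cells, which stop dividing and release inflammatory factors. BL6129 names a mixed background, and the labels do not say that WT and 3xTg mice were littermates, so the 3xTg alleles and other differences between the strains cannot be told apart. The labels do not say that each library is a separate animal, and p-values then measure only the spread between these libraries.

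The 8 libraries held between 34665131 and 50440096 counts. Genes were tested on these counts with edgeR's quasi-likelihood test, p-values were adjusted by Benjamini-Hochberg over all genes tested, and a gene was called at an adjusted p under 0.05. Levels are given as CPM (counts scaled to each library's effective size), differences as log2 of 3xTg over WT with their standard error (SE), and library values in the order of replicates 1 to 4. Of the marker genes of the hippocampal dentate gyrus (8 genes) and CA fields (10 genes), none was at 0 in all libraries of a group. Their lowest summed levels in any of the 8 libraries were 469.6 and 1014.6 CPM. Marker genes of neighbouring tissue varied: the summed level of 15 choroid plexus genes ran from 485 to 4759 CPM in 3xTg and from 462 to 7485 CPM in WT. For 9 striatum genes it ran from 95.7 to 324.6 CPM in 3xTg and from 95.1 to 116.6 CPM in WT. All 9 had a positive difference. The summed level of 16 thalamus and habenula genes ran from 394 to 446 CPM in 3xTg and from 443 to 690.5 CPM in WT, and WT replicates 1 and 4 had the highest scores. Without those 2 WT libraries, a setting chosen after seeing the data, 201 genes were called, 88 higher and 113 lower. With 1 library left out the count ran from 269 to 615, and it was 274, 276 and 278 without 3xTg replicates 2, 3 and 4 and 269 without WT replicate 3. With only the 8 libraries of the comparison in the fit 418 genes were called, and 291 of the 500 calls were kept. Each named result was recomputed under 18 alternative settings, which include leaving out each of the 8 libraries. Of the 103 named genes that were called, 35 kept their call in every setting that tested them and none of the 103 changed direction. The losses named beside a gene are mainly those with 1 library left out. Most genes that lost a call so, and also Ggta1, C5ar2, B2m, Bcl2a1b and Rpl3, lost it without those 2 WT libraries as well.

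Genes called higher in 3xTg had a median level of 4.11 on the log2 CPM scale and a median difference of 0.61 (log2). Genes called lower were less abundant, with a median log2 CPM of 1.78 and a median absolute difference of 0.94. The median absolute difference over all genes was 0.13. Differences of at least 2-fold were found in 70 genes called higher and 107 called lower. Without regard to the test, the 4 libraries of 3xTg lay wholly above the 4 of WT for 935 genes (5.71%) and wholly below for 833 (5.09%). This held for 252 of the 275 genes called higher and 190 of the 225 called lower. With the trend of each library against GC content removed, the split of calls moved to 433 higher and 224 lower.

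**Figure D1:**
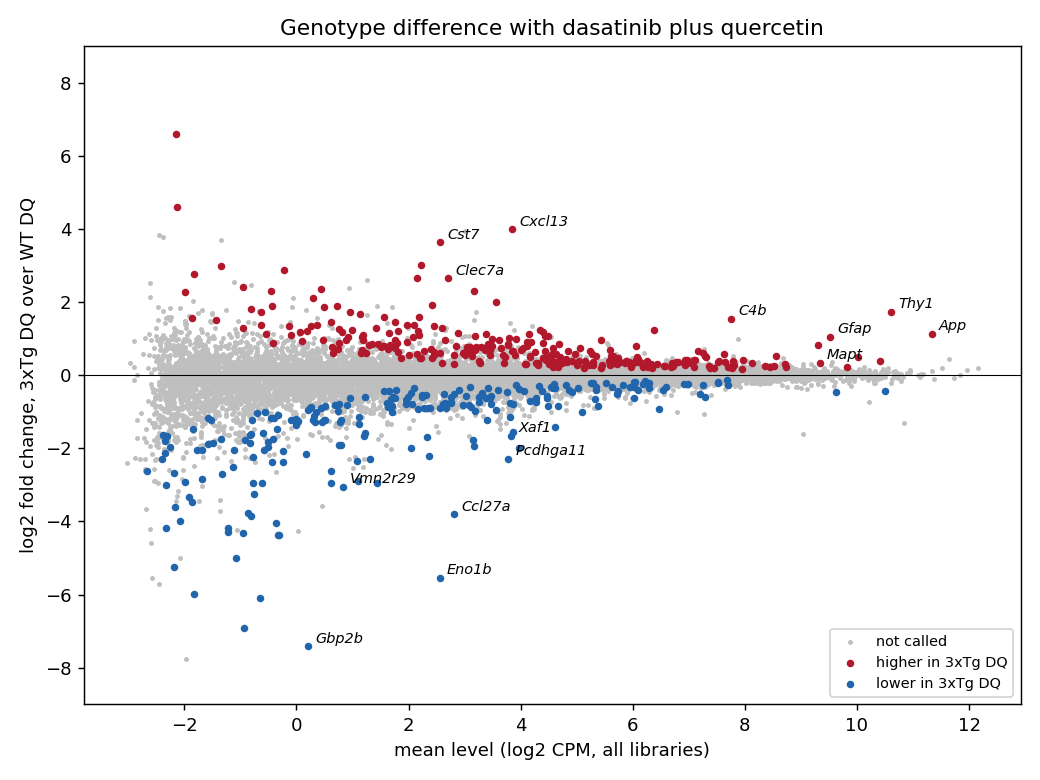
Each point is 1 of the 16369 genes tested: the horizontal axis is the mean level over all libraries (log2 CPM) and the vertical axis the log2 difference of 3xTg DQ over WT DQ. Red points are the 275 genes called higher and blue points the 225 called lower; the lower ones spread over the left of the plot, at low levels.

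The genes of the transgene constructs were among the abundant genes that differed. App, the amyloid precursor protein gene (chr16:84952666-85175255, mm10), was at 3399, 3657, 3645 and 3365 CPM in 3xTg and at 1719, 1511, 1555 and 1673 CPM in WT. All 4 libraries of 3xTg lay above all 4 of WT, by 2.18-fold on average (log2 1.12 ± 0.09, adjusted p 5.12e-09). Thy1, a surface glycoprotein of neurons whose promoter drives the transgenes, was at 2173, 2428, 2326 and 2306 CPM in 3xTg and 722, 659, 742 and 666 CPM in WT, 3.31-fold higher (log2 1.73 ± 0.10, adjusted p 1.14e-11). Over the whole series the 16 libraries of 3xTg ran from 2410.2 to 3805 CPM for App and from 1598 to 2602 CPM for Thy1, with no overlap with the 12 of WT (1469.5 to 1799.5 and 632 to 782 CPM). How far reads from the human transgenes were counted under the mouse symbols was not tested.

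Mapt, which encodes tau, was also higher, at 728, 684, 724 and 691 CPM in 3xTg and 542, 619, 559.5 and 527 CPM in WT. The groups did not overlap (log2 0.33 ± 0.06, adjusted p 0.00108), and the call was lost only without WT replicates 1 and 4 together (adjusted p 0.0591). Of 17 genes of amyloid precursor processing 1 was called higher, App, and 1 lower, and the median difference of the 17 was 0.06. Mapt was the 1 called of 19 genes of tau and its kinases (median 0.00155), beside a median of -0.00275 over all genes.

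**Figure D2:**
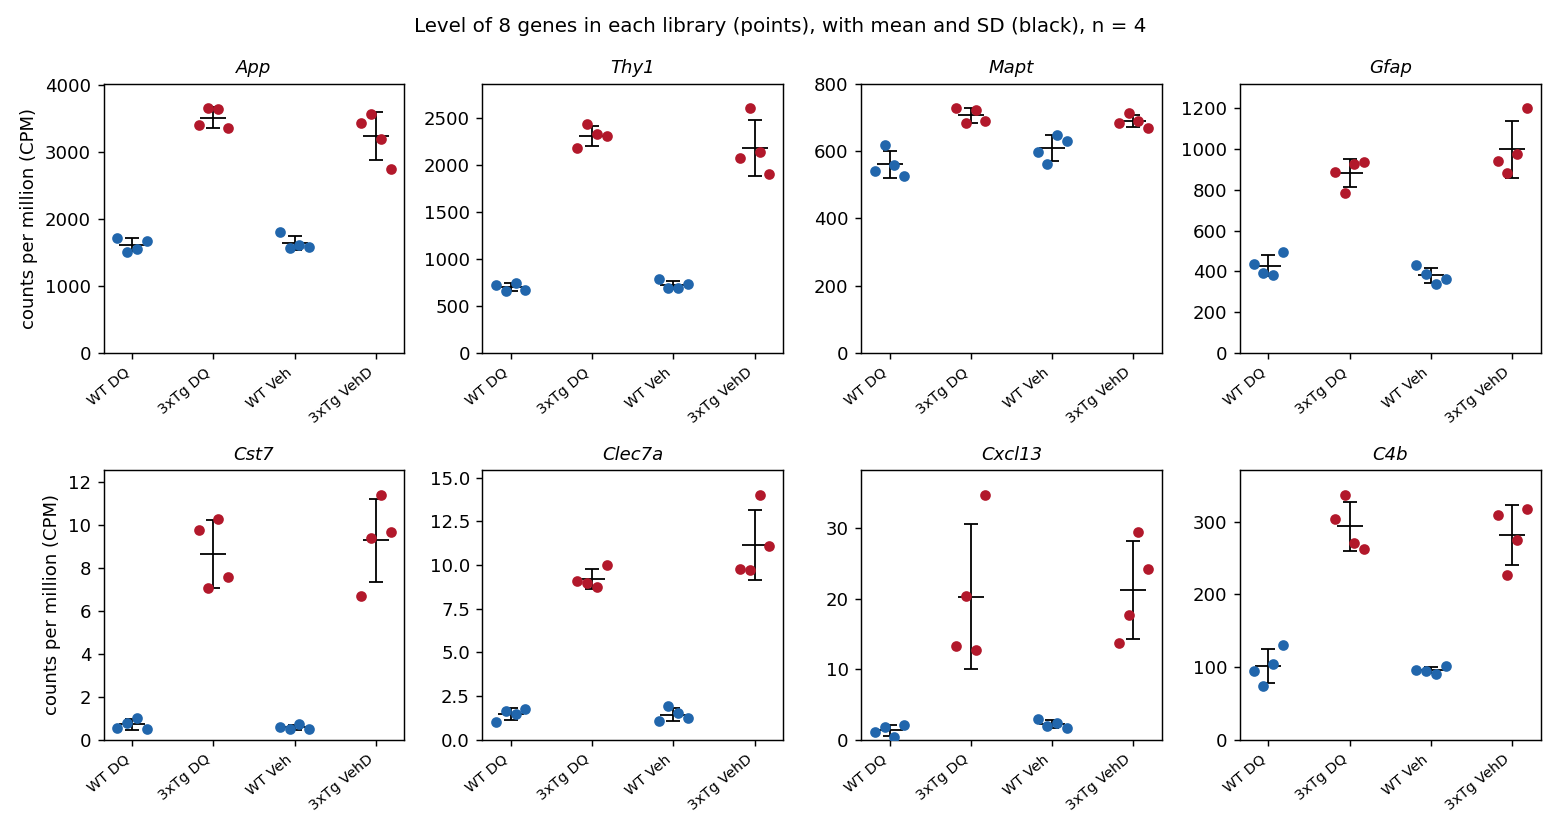
The 8 panels plot the level (CPM, axis from 0) of 1 gene each in the libraries of WT DQ, 3xTg DQ, WT Veh and 3xTg VehD; points are libraries, and the black bars give the mean and SD of 4. In each panel every 3xTg library lies above every WT library of both treatments, by most in Cst7, Clec7a and Cxcl13 and by least in Mapt.

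Of the 30 genes tested of the disease-associated microglial programme, 10 were called higher in 3xTg and 0 lower, a share of 33.3% against 1.68% of all genes, and all 30 had a positive difference with a median of 0.43. Cst7, an inhibitor of lysosomal proteases (chr2:150570415-150578944), was at 9.77, 7.07, 10.3 and 7.58 CPM in 3xTg and at 0.525, 0.777, 1.01 and 0.502 CPM in WT. Clec7a, a receptor for fungal glucans used as a marker of microglia at plaques (chr6:129461591-129472785), was at 9.08, 8.96, 8.72 and 9.99 CPM in 3xTg and at 1.03, 1.64, 1.45 and 1.77 CPM in WT. Neither gene had overlapping groups, and the rises were 12.4-fold for Cst7 (log2 3.63 ± 0.38, adjusted p 8.04e-07) and 6.27-fold for Clec7a (log2 2.65 ± 0.26, adjusted p 2.29e-07). With App they served as markers of the genotype, and in all 8 libraries their levels went with the label. These are the same values as the differences reported, so they are no separate check of the labels. By DESeq2 11 of the 30 genes were called. With 1 library left out 8 to 10 were, and without WT replicates 1 and 4 together 3 were.

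Other members of the programme differed less. Itgax, an integrin of phagocytes, was at 3.0 to 4.95 CPM in 3xTg against 1.0 to 1.68 CPM in WT (log2 1.44 ± 0.29). Tyrobp, the signalling adaptor of several microglial receptors, was at 26.1 to 28.9 CPM in 3xTg against 14.6 to 19.2 CPM in WT (log2 0.74 ± 0.16). Cd84, a receptor of the SLAM family, was at 7.9 to 10.9 CPM in 3xTg against 3.86 to 4.23 CPM in WT (log2 1.15 ± 0.16) and Cd52, a short surface glycoprotein, at 4.41 to 6.98 CPM in 3xTg against 2.01 to 2.67 CPM in WT (log2 1.21 ± 0.23). In none of these 4 genes did the groups overlap, with adjusted p of 0.0049, 0.00752, 1.06e-04 and 0.00374. Cd84 kept its call in all 18 settings while the other 3 lost it only without WT replicates 1 and 4 together (adjusted p up to 0.119). Trem2, the receptor that signals through Tyrobp, was at 13.5, 11.4, 11.3 and 13.2 CPM in 3xTg and 7.04, 6.1, 6.91 and 8.69 CPM in WT. These values did not overlap either, but the log2 difference of 0.78 ± 0.22 missed the threshold (adjusted p 0.055) and passed it in 4 of 18 settings. Lilrb4, an inhibitory receptor, was at 1.85 to 2.65 CPM against 0.662 to 1.63 CPM (log2 1.18 ± 0.32, adjusted p 0.0441). The call was lost without any single library except WT replicate 3 (adjusted p up to 0.389 over all settings).

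The genes with the largest rises also included secreted and lysosomal products of myeloid cells. Cxcl13, a chemokine that attracts B cells, was at 13.2, 20.4, 12.7 and 34.7 CPM in 3xTg and 1.01, 1.75, 0.337 and 2.06 CPM in WT (15.8-fold, log2 3.99 ± 0.57, adjusted p 1.42e-04). Ctse, an aspartic protease, was at 6.26, 6.17, 6.28 and 7.1 CPM in 3xTg and 0.328, 0.805, 0.932 and 1.19 CPM in WT (log2 3.0 ± 0.43, adjusted p 1.20e-04). Ccl3, a chemokine, was at 2.05, 1.78, 1.48 and 1.57 CPM in 3xTg and 0.109, 0.460, 0.311 and 0.475 CPM in WT (log2 2.36 ± 0.43, adjusted p 0.00232). The groups did not overlap for Cxcl13, Ctse or Ccl3, each kept its call in all 18 settings, and replicate 4 held the highest 3xTg value of Cxcl13. The neighbouring chemokine genes Ccl4 (log2 1.80 ± 0.42, adjusted p 0.0157) and Ccl6 (log2 1.38 ± 0.29, adjusted p 0.00752) lie in the same 5 Mb of chromosome 11 as Ccl3. The call for Ccl4 was lost without 3xTg replicate 1 or WT replicate 1 or 3, and that for Ccl6 without WT replicates 1 and 4 together. Ccr1, a receptor for Ccl3 (log2 1.67 ± 0.27, adjusted p 6.26e-04), and Cd14, the co-receptor for bacterial lipopolysaccharide (log2 1.34 ± 0.25, adjusted p 0.0026), kept their calls in all 18 settings.

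Of 16 genes that mark microglia at rest, 2 were called higher (12.5%) and 0 lower, and all 16 had a positive difference, with a median of 0.26. Without WT replicates 1 and 4 together 0 were called. Of the 2 called, P2ry13, a nucleotide receptor, was at 17.3, 15, 21.8 and 21.3 CPM in 3xTg and 12, 16, 13.2 and 12.2 CPM in WT (log2 0.50 ± 0.12, adjusted p 0.0164). WT replicate 2 lay above 3xTg replicate 2, so the groups of P2ry13 overlapped. The call was lost without 3xTg replicates 3 or 4 or WT replicates 1, 3 or 4 (adjusted p up to 0.297 over all settings). In bulk tissue more cells of a type and more RNA per cell cannot be told apart. Beside these rises, all 14 endothelial genes had a negative difference, with 0 called by edgeR or DESeq2, 9 at an unadjusted p under 0.05 and a median of -0.44. Their summed level was 349 to 398 CPM in 3xTg and 424 to 532 CPM in WT, without overlap. None of the 9 border macrophage, 10 pericyte and 12 meningeal fibroblast genes was called, with medians of -0.434, -0.462 and -0.815. Of these lists 2, 5 and 6 genes had an unadjusted p under 0.05, and DESeq2 called 1 lower in each list. Of all 16369 genes tested, 2843 had an unadjusted p under 0.05. The part of other cell types in the microglial differences was not tested.

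A stretch of chromosome 1 held several of these receptors. Between 170000001 and 175000000 (mm10), 9 of 66 tested genes were called, 13.6% against 3.05% of all genes. All were higher: the Fc receptor genes Fcgr2b, Fcgr3 and Fcer1g, the SLAM family genes Ly9, Cd48 and Cd84, the DNA sensor gene Aim2, and Copa and Dcaf8. This stretch was picked after the calls were seen. Other stretches of 5 Mb held larger shares, such as 28.6% on chromosome 3 (from 140000001) and 19.6% on chromosome 7 (from 1). Fcer1g, the shared signalling chain of Fc receptors, was at 13, 11.4, 13.5 and 14.7 CPM in 3xTg and 6.85, 6.93, 9.5 and 6.74 CPM in WT (log2 0.81 ± 0.14, adjusted p 0.00155). Ly9, a receptor of lymphoid and myeloid cells, was at 2.76, 3.28, 4.1 and 3.81 CPM and 1.23, 1.5, 1.81 and 1.22 CPM (log2 1.28 ± 0.25, adjusted p 0.0037). The groups did not overlap for either gene, and both calls were lost only without WT replicates 1 and 4 together. Fcgr3 (log2 0.59 ± 0.13, adjusted p 0.0127) lost its call without 3xTg replicate 4 or WT replicate 1. Fcgr2b (0.78 ± 0.22), Cd48 (0.82 ± 0.22) and Aim2 (0.45 ± 0.12) were called at adjusted p between 0.0364 and 0.0466, with calls lost in 11 to 13 settings. Those losses came with any single library left out except WT replicate 3 for Fcgr2b, replicate 2 of either genotype for Cd48 and 3xTg replicate 1 for Aim2. The stretch of chromosome 1 held 10 called genes with vehicle and 16 with navitoclax.

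Of 24 reactive astrocyte genes 7 were called higher in 3xTg (29.2%) and 0 lower, with a median difference of 0.44. Only 14 of the 24 had a positive difference. Without 3xTg replicate 2 the count was 4, and without WT replicates 1 and 4 together 3. Gfap, the intermediate filament of astrocytes, was at 886, 787, 925 and 934 CPM in 3xTg and 438, 393, 384 and 496 CPM in WT, 2.06-fold higher (log2 1.05 ± 0.18, adjusted p 0.00116). Osmr, the receptor for oncostatin M, was at 23.3, 24.8, 27.9 and 28.7 CPM in 3xTg and 8.86, 10.8, 11.7 and 13.3 CPM in WT (log2 1.23 ± 0.20, adjusted p 9.28e-04). For Gfap and Osmr the groups did not overlap, also over all 16 libraries of 3xTg and 12 of WT, and the calls held in all 18 settings. Ggta1, a galactosyltransferase, rose by 0.98 ± 0.18 (adjusted p 0.00212), S1pr3, a receptor for sphingosine 1-phosphate, by 0.90 ± 0.20 (adjusted p 0.0145), and Vim, the intermediate filament vimentin, by 0.81 ± 0.21 (adjusted p 0.0364), all on the log2 scale. C4b and Tgm1, described below, were the other 2. S1pr3 was at 17.4, 28.2, 18 and 18.2 CPM in 3xTg, and without replicate 2 its call was lost; Vim lost its call without any of 3xTg replicates 1 to 3 or WT replicates 1 to 3. Of 12 genes of resting astrocytes only Slc1a3, the glutamate transporter GLAST, was called, at 1145, 1218, 1180.4 and 1248 CPM in 3xTg and 821, 876, 846 and 829.8 CPM in WT (log2 0.51 ± 0.07, adjusted p 1.06e-04).

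Of 21 complement genes 2 were called higher and 1 lower, with a median of 0.13. C4b, the classical pathway component that is also counted among the reactive astrocyte genes, was at 304, 337, 271 and 263 CPM in 3xTg and 94.9, 74.2, 104 and 131 CPM in WT, 2.91-fold higher (log2 1.54 ± 0.21, adjusted p 5.75e-05), with a call in all 18 settings. C3, the central component, was at 17.1, 33.5, 10.6 and 10.8 CPM in 3xTg and 3.76, 4.2, 5.15 and 4.81 CPM in WT (log2 2.01 ± 0.43, adjusted p 0.00951). No library of WT reached the lowest of 3xTg, but replicate 2 was the highest, and without it the difference was 1.52 and the call was lost (adjusted p 0.0621). C5ar2, a second receptor for the fragment C5a, was lower at 0.0596, 0.115, 0.291 and 0.217 CPM against 0.547, 0.690, 0.492 and 1.06 CPM (log2 -2.06 ± 0.41, adjusted p 0.00451). Itgb2, a subunit of complement receptors, was at 10.2 to 11.7 CPM against 6.37 to 8.68 CPM and missed the threshold (log2 0.62 ± 0.18, adjusted p 0.0514).

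Interferon-stimulated genes are switched on by interferon signalling through response elements near their start sites. Of 29 such genes tested, 6 were called higher (20.7%) and 1 lower, and 26 had a positive difference, with a median of 0.75. To show the promoters behind these values, the 250 bases before a transcript start of 4 of them are given, read from the RefSeq tables of GRCm38.p6 on the plus strand, 5′ to 3′. For Ifit3, Gbp3 and Xaf1 that transcript start lies downstream of the start of the gene as annotated, so the window reaches into or lies within the gene. Gbp3 has 2 windows in the tables, and the one with more matches is shown. Capitals mark each match to the interferon response element, here GAAA, any 2 bases and GAAA, on either strand; matches may overlap, as they do in Gbp3, where 2 share bases.
Ifit3 (chr19:34583279-34583528): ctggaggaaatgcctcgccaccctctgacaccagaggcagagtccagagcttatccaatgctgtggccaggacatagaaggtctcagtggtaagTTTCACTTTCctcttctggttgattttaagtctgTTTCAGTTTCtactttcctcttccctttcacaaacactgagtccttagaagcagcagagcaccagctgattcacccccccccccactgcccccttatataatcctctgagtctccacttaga
Stat2 (chr10:128270248-128270497): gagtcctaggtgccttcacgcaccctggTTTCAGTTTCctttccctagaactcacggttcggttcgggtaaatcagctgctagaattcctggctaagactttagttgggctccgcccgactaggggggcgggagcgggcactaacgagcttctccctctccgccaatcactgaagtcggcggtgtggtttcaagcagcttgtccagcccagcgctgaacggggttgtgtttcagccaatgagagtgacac
Gbp3 (chr3:142559794-142560043): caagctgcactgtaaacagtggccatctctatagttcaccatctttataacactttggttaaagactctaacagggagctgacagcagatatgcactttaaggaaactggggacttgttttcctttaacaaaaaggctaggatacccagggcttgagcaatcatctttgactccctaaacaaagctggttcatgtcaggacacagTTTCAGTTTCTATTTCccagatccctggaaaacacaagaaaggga
Xaf1 (chr11:72301379-72301628): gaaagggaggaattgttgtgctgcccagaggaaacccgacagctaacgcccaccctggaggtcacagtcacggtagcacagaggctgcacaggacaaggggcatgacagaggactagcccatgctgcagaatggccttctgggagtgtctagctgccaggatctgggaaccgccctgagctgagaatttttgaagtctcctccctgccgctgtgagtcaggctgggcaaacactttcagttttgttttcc
Ifit3 had 2 matches, Stat2 1, Gbp3 2 and Xaf1 none in these windows, and the window of Gbp3 that is not shown had 0. Irf9, also called higher and not printed, had 0 matches in its windows. The element was found in 13 of the 22 interferon list genes with a RefSeq window (59.1%) and in 378 of 12135 tested genes (3.11%). Among called genes it was found in 13 of 187 higher (6.95%) and in 6 of 155 lower (3.87%). A gene was counted if any of its windows held it. A match describes letters only and does not show binding.

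Several of the members called higher varied among the 3xTg libraries. Ifit3, which encodes an antiviral RNA-binding protein, was at 10.8, 31.1, 22.7 and 30.2 CPM in 3xTg and 8.25, 12.3, 9.58 and 13.7 CPM in WT (log2 1.11 ± 0.29, adjusted p 0.0376). Usp18, which removes ISG15 from proteins, was at 2.24, 6.7, 4.22 and 8.06 CPM in 3xTg and 1.36, 2.47, 1.55 and 2.77 CPM in WT (log2 1.38 ± 0.37, adjusted p 0.0406). In both genes replicate 1 of 3xTg lay within the range of WT, and the other 3 libraries lay above it. Gbp3, a guanylate-binding GTPase, was at 7.69, 12.5, 11 and 13.9 CPM in 3xTg and 4.33, 7.88, 3.44 and 5.86 CPM in WT (log2 1.07 ± 0.26, adjusted p 0.0227). Rtp4, a chaperone of membrane receptors, was at 2.94, 7.23, 4.1 and 7.77 CPM and 2.78, 2.36, 2.49 and 3.01 CPM (log2 1.05 ± 0.26, adjusted p 0.0222). Replicate 1 was again the lowest of 3xTg and lay within the range of WT. For Stat2, a transcription factor of interferon signalling, the groups did not overlap: it was at 40.3, 39, 37.4 and 36 CPM in 3xTg and 25.9, 32.8, 32.2 and 27.1 CPM in WT (log2 0.37 ± 0.09, adjusted p 0.0197). Irf9, a DNA-binding factor of the same signalling, was at 11.9, 16.7, 10.9 and 16.7 CPM and 9.91, 9.0, 8.65 and 11 CPM, and 3xTg replicate 3 lay below WT replicate 4 (log2 0.54 ± 0.15, adjusted p 0.0413).

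These 6 calls depended on single libraries and on the fit. With 1 library left out between 0 and 7 members were called higher, and without WT replicates 1 and 4 together 0 were. Without 3xTg replicate 2, which was high in Ifit3, Usp18, Gbp3, Rtp4 and Irf9, the calls of all 6 were lost; without replicate 4 those of Ifit3, Usp18, Gbp3, Rtp4 and Irf9 were lost. WT replicate 1 ended those of Stat2, Gbp3, Ifit3, Irf9 and Usp18, WT replicate 3 those of Rtp4, Gbp3, Ifit3, Irf9 and Usp18, and 3xTg replicate 3 those of Gbp3, Ifit3 and Usp18. Stat2 also lost its call without 3xTg replicate 1 or WT replicate 4, and Irf9 without WT replicate 2. With only the libraries of the comparison in the fit, the calls of all 6 were lost as well. With choroid plexus and thalamus scores as covariates, those of Ifit3, Irf9 and Usp18 were lost. Adjusted p values over the 18 settings reached 0.193 for Ifit3, 0.202 for Usp18, 0.203 for Gbp3, 0.111 for Rtp4, 0.376 for Stat2 and 0.162 for Irf9, and no direction changed. The member that fell, Xaf1, an interferon-induced antagonist of apoptosis inhibitors, was at 6.41, 7.95, 5.38 and 7.94 CPM in 3xTg and 14.3, 30.3, 21.3 and 22.2 CPM in WT (log2 -1.67 ± 0.22, adjusted p 5.27e-05). Its groups did not overlap, also over all 28 libraries, and its call held in all 18 settings. B2m, the light chain of MHC class I and the 1 gene called of 19 of antigen presentation, was at 112, 147, 168 and 198 CPM in 3xTg and 94.6, 105, 94 and 100.2 CPM in WT (log2 0.67 ± 0.14, adjusted p 0.00643).

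Of 31 lysosomal genes 4 were called higher (12.9%), 0 lower, and the median was 0.11. Without WT replicates 1 and 4 together none was called. Ctss, a cysteine protease of microglia, was at 159, 162, 170.3 and 201 CPM in 3xTg and 99.5, 126, 121 and 109 CPM in WT (log2 0.60 ± 0.12, adjusted p 0.0037). Scarb2, a lysosomal membrane protein, was at 139, 138, 146 and 145 CPM and 118, 125, 103 and 104 CPM (log2 0.34 ± 0.07, adjusted p 0.00692). Cd68, a membrane glycoprotein of phagocytes, was at 15.1, 10.9, 13.4 and 12.8 CPM and 8.79, 7.16, 9.27 and 7.13 CPM (log2 0.69 ± 0.18, adjusted p 0.0298). In none of these 3 did the groups overlap. The call for Cd68 was lost without 3xTg replicates 1, 3 or 4 or WT replicates 2 or 4 (adjusted p up to 0.211 over all settings). Ctss and Scarb2 lost theirs only without WT replicates 1 and 4 together.

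Of 24 genes of cholesterol synthesis 4 were called higher (16.7%) and 0 lower, with a median of 0.23. Between 1 and 6 were called with 1 library left out and 1 without WT replicates 1 and 4 together. Hmgcs1, which makes the precursor of mevalonate, was at 430.4, 402, 445 and 402 CPM in 3xTg and 297, 321, 302 and 248 CPM in WT (log2 0.52 ± 0.09, adjusted p 0.00127), with a call in all 18 settings. Sc5d, a late-step desaturase, was at 77.2, 72.5, 75.8 and 71.6 CPM and 45.1, 65, 53.3 and 46.2 CPM (log2 0.50 ± 0.12, adjusted p 0.0206). Msmo1, a sterol demethylase, differed by 0.41 ± 0.11 (adjusted p 0.04) and Fdft1, squalene synthase, by 0.32 ± 0.09 (adjusted p 0.0454) on the log2 scale. In all 4 genes every library of 3xTg lay above every library of WT. The calls of Sc5d, Msmo1 and Fdft1 were each lost without 3xTg replicate 1 or 3 or WT replicate 1, 3 or 4, and those of Msmo1 and Fdft1 also without 3xTg replicate 4 (adjusted p up to 0.44 for Fdft1 over all settings). Of 16 genes of myelin and oligodendrocytes, Trf, the iron carrier transferrin, was the 1 called, at 795, 770.4, 672 and 666 CPM in 3xTg and 451, 432, 349 and 417 CPM in WT (log2 0.82 ± 0.22, adjusted p 0.0399). Leaving out any 1 of the 8 libraries ended that call.

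Regulators of senescence did not pass the test. Of 16 cell cycle regulators 0 were called by edgeR and 0 by DESeq2, and the median was -0.01. An unadjusted p under 0.05 was found for 1 of the 16 and for 2843 of the 16369 genes tested. Cdkn1a, which encodes p21, was at 10.7, 9.4, 10.2 and 8.55 CPM in 3xTg and 7.88, 7.62, 12.2 and 9.62 CPM in WT, and the groups overlapped (log2 0.06 ± 0.22, adjusted p 0.903). Cdkn2a, which encodes p16, had 0 to 2 counts per library, too few for the test across genes. An exact two-sided permutation test of its CPM gave p = 0.629, where 70 assignments allow no p below 0.0286, and a difference was not detectable at this depth. Of 35 secretory factors of senescent cells 4 were called higher (11.4%) and 0 lower, with a median of 0.11. Without WT replicate 3, or without WT replicates 1 and 4 together, 2 were called. The 4 were Cxcl13, Ccl3, Ccl4 and Mmp12, an elastase of macrophages at 0.616, 0.577, 0.494 and 1.09 CPM in 3xTg and 0.131, 0.144, 0.0777 and 0.159 CPM in WT (log2 2.42 ± 0.55, adjusted p 0.0143). The call for Mmp12 was lost without 3xTg replicate 4 or WT replicate 3.

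Among 16 genes of the BCL-2 family, Bcl2a1b, an anti-apoptotic member of myeloid cells, was the 1 called, at 2.6, 2.03, 2.15 and 3.14 CPM in 3xTg and 0.416, 0.662, 1.09 and 0.872 CPM in WT (log2 1.71 ± 0.32, adjusted p 0.00293). The call was lost without WT replicates 1 and 4 together (adjusted p 0.07). Bcl2a1b has close copies, so its counts are uncertain. Among 31 kinases that dasatinib is known to bind, Lyn, a Src family kinase of myeloid cells, was the 1 called, at 13.4, 14.2, 15.2 and 17.5 CPM in 3xTg and 9.36, 11.2, 11.1 and 10.9 CPM in WT. Its groups did not overlap (log2 0.50 ± 0.11, adjusted p 0.0107), and the call was lost without 3xTg replicate 4. Among 19 antioxidant genes under NRF2, the factor that quercetin is reported to engage, Gsr, glutathione reductase, was the 1 called and was lower at 25.3, 25.6, 24.7 and 24.8 CPM in 3xTg against 26.3, 40.9, 38.9 and 32 CPM in WT (log2 -0.46 ± 0.12, adjusted p 0.0279). The 3xTg libraries of Gsr lay within 1 CPM of each other and below all WT libraries, and WT replicate 1 was close to them. The call was lost without any 1 of the 4 libraries of 3xTg or without WT replicate 2 or 3. The medians of these lists were -0.08, -0.04 and -0.05.

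Of 24 immediate early genes, which neurons transcribe within minutes of activity, 3 were called lower (12.5% against 1.37% of all genes), 0 higher, and the median was -0.22. DESeq2 called 4, and without WT replicates 1 and 4 together 0 were called. Arc, a regulator of synaptic receptors, was at 67.8, 73.4, 55.7 and 55.2 CPM in 3xTg and 110.5, 66.6, 187 and 121 CPM in WT (log2 -0.94 ± 0.25, adjusted p 0.0356). Dusp1, a phosphatase of MAP kinases, was at 15.6, 16.5, 20.8 and 16.8 CPM and 32.7, 23.2, 40.4 and 27.7 CPM (log2 -0.83 ± 0.23, adjusted p 0.047). Nr4a1, a nuclear receptor, was at 36.3, 32.1, 29.8 and 31.5 CPM and 61.8, 33.7, 78.5 and 57 CPM (log2 -0.83 ± 0.23, adjusted p 0.0491). WT replicate 3 was the highest and WT replicate 2 the lowest of WT in all 3 genes, and for Arc and Nr4a1 WT replicate 2 lay within the range of 3xTg. Each of the 3 calls was lost without any 1 of the 4 libraries of 3xTg or without WT replicates 1, 3 or 4 (adjusted p up to 0.202, 0.191 and 0.237 over all settings). The time from the last handling of the mice to tissue collection is not given in the labels.

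Other neuronal lists held few or no calls. Of 8 dentate gyrus genes 2 were called lower. C1ql2, a synaptic organizer of mossy fibres, was at 11.5, 12.3, 10.6 and 11.8 CPM in 3xTg and 19.6, 17.2, 20.6 and 22.2 CPM in WT (log2 -0.78 ± 0.18, adjusted p 0.0154). Lct, lactase, was at 31.1, 41.5, 29.1 and 31 CPM and 37.8, 58.8, 55.6 and 55.7 CPM (log2 -0.65 ± 0.15, adjusted p 0.0146). The groups of C1ql2 did not overlap, and those of Lct did through WT replicate 1 and 3xTg replicate 2. The calls were lost without 3xTg replicate 3 for both, with the GC trend removed for C1ql2, and without 3xTg replicate 4 or WT replicate 3 for Lct. The median of the 8 genes was 0.06. None of 10 genes of the CA fields, 12 of excitatory neurons, 15 of inhibitory interneurons, 23 of presynaptic release and 28 of the respiratory chain was called by edgeR, with medians between -0.08 and -0.03. In these lists 2, 0, 2, 3 and 6 genes had an unadjusted p under 0.05, and DESeq2 called 1 interneuron gene higher and 1 lower and 1 respiratory chain gene lower. Over all genes tested, the unadjusted p was under 0.05 for 2843 of 16369. Of 23 postsynaptic genes only Arc was called. Hspa8, the constitutive heat shock chaperone, was the 1 called of 16 chaperones (log2 0.39 ± 0.11, adjusted p 0.0432); leaving out any 1 library other than WT replicate 2 ended that call. By edgeR none of 10 oligodendrocyte precursor, 8 ependymal, 5 lymphocyte and 3 blood cell genes was called, nor any of 15 choroid plexus, 16 thalamus and habenula and 9 striatum genes, whose medians were -0.94, -0.62 and 0.83. Of these 7 lists the unadjusted p was under 0.05 for 2, 0, 2, 2, 0, 2 and 4 genes, and DESeq2 called 1 blood cell gene lower.

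**Figure D3:**
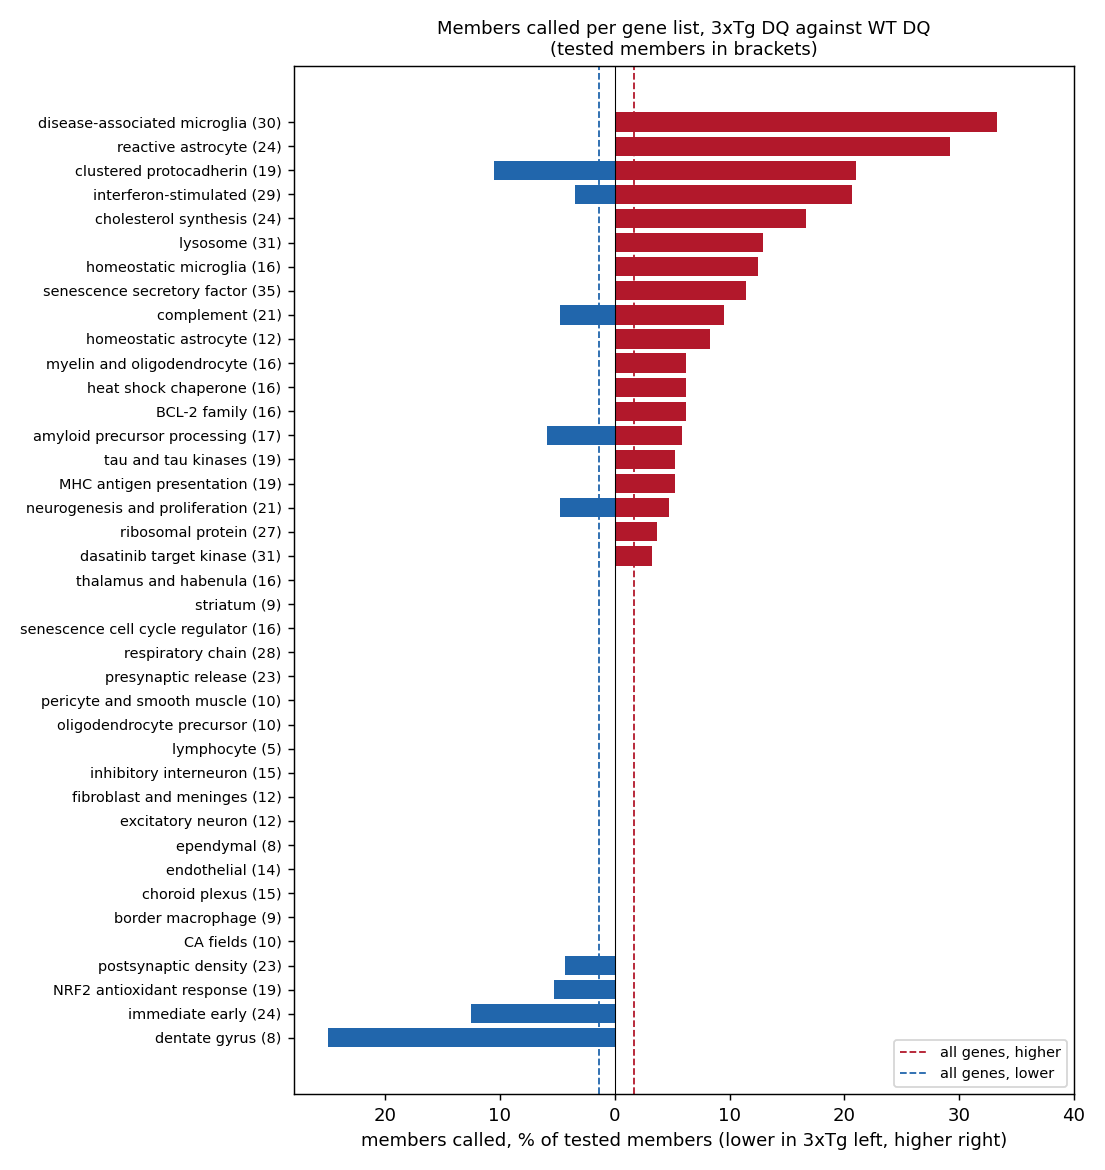
Bars give, for each gene list with at least 5 tested members (number in brackets), the percent of members called higher (red, to the right) or lower (blue, to the left) in 3xTg DQ against WT DQ; dashed lines mark the same percent over all genes, 1.68 and 1.37. Disease-associated microglia (33.3%) and reactive astrocytes (29.2%) reach farthest to the right and the dentate gyrus list, with 2 of 8 genes, farthest to the left.

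Several falls in 3xTg were large and alike in all libraries. Ccl27a, a chemokine gene with near-identical copies (chr4:41769467-41774225), was at 1.05, 1.09, 0.756 and 1.11 CPM in 3xTg and 15.6, 12.5, 15.1 and 13.4 CPM in WT, 14-fold lower (log2 -3.81 ± 0.27, adjusted p 1.29e-09). Pcdhga11, a protocadherin of the gamma cluster, was at 5.0, 4.39, 5.38 and 6.11 CPM in 3xTg and 24.6, 23.8, 26 and 27.7 CPM in WT (log2 -2.29 ± 0.11, adjusted p 1.01e-12). Mcm6, a subunit of the replicative helicase, was at 3.44, 4.85, 3.66 and 3.48 CPM in 3xTg and 17.1, 13.4, 13.3 and 8.77 CPM in WT (log2 -1.77 ± 0.19, adjusted p 1.85e-06). Neither these 3 genes nor Vmn2r29, a vomeronasal receptor (log2 -3.05 ± 0.30, adjusted p 2.46e-07), Tagap, a GTPase-activating protein of T cells (log2 -2.21 ± 0.18, adjusted p 1.67e-08), and Gm1976, a predicted gene (log2 -2.0 ± 0.14, adjusted p 1.29e-09), had any overlap between the 16 libraries of 3xTg and the 12 of WT. All 6 kept their calls in all 18 settings. Over the series 59 genes (0.360%) lay wholly higher and 38 (0.232%) wholly lower in the 16 libraries of 3xTg, and 54 and 35 of these were called here. Mcm4, another helicase subunit and with Mcm6 the 2 called of 21 neurogenesis and proliferation genes, rose in place of falling (log2 0.32 ± 0.08, adjusted p 0.0264). Its call was lost without 3xTg replicates 1, 2 or 3 or WT replicates 1 or 3.

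Clustered protocadherins, which give neurons distinct surface identities, moved in both directions. Of the 19 listed, 4 were called higher (21.1% against 1.68% of all genes) and 2 lower (10.5% against 1.37%), with a median of 0.09. The list covers only a part of the clusters. Outside it, Pcdha9, Pcdhb1, Pcdhb3, Pcdhb11, Pcdhgb2, Pcdhgb4 and Pcdhgb8 were called as well. Beside Pcdhga11, which fell, Pcdhgb6 was at 5.41 to 7.3 CPM in 3xTg against 10.7 to 12 CPM in WT (log2 -0.81 ± 0.14, adjusted p 9.35e-04). Pcdhga4 was at 27.8 to 29.8 CPM in 3xTg against 11 to 14.9 CPM in WT (log2 1.17 ± 0.10, adjusted p 1.07e-08) and Pcdhga9 at 16.6 to 21.3 CPM in 3xTg against 11.4 to 13.8 CPM in WT (log2 0.56 ± 0.12, adjusted p 0.00752). For these 4 genes the groups did not overlap and the calls held in all 18 settings. Pcdhb2 (log2 0.74 ± 0.16, adjusted p 0.0117) and Pcdhgb1 (log2 0.53 ± 0.14, adjusted p 0.029) also rose. Both lost their call without 3xTg replicate 3 or WT replicate 3, Pcdhgb1 also without 3xTg replicate 1 or 2 or WT replicate 4. The gamma genes share their last exons and overlap one another, so how the authors' counting split reads between them is uncertain.

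Some called genes varied among the WT libraries, of DQ or of the other treatments. Eno1b, an enolase gene, was at 0.298, 0.370, 0.174 and 0.410 CPM in 3xTg and 16.1, 10.8, 14.1 and 18.9 CPM in WT under DQ (log2 -5.55 ± 0.89, adjusted p 5.91e-04), and its call held in all 18 settings. In WT with vehicle it was at 0.386, 9.9, 12.1 and 18.3 CPM and in WT with navitoclax at 23.8, 11.3, 0.305 and 21.7 CPM, so 1 library of each lay in the range of 3xTg. Gbp2b, another guanylate-binding GTPase, was at 0, 5.29, 2.05 and 2.8 CPM in WT and at most 0.0291 CPM in 3xTg (adjusted p 0.0289), and WT replicate 1 was also at 0. Wdfy1, an adaptor of Toll-like receptor signalling, was at 17.1, 16.9, 15.4 and 16.2 CPM in 3xTg and 16.3, 76.1, 43.8 and 41.2 CPM in WT (log2 -1.43 ± 0.39, adjusted p 0.0408), and WT replicate 1 lay among the 3xTg libraries. The calls of Gbp2b and Wdfy1 were lost without any 1 of the 4 libraries of 3xTg or without WT replicates 2, 3 or 4 (adjusted p up to 0.285 and 0.117 over all settings).

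Pcdhgb8, a further gamma protocadherin, was at 7.96, 9.63, 10.5 and 11.6 CPM in 3xTg and 1.29, 2.21, 2.51 and 2.14 CPM in WT under DQ (log2 2.29 ± 0.57, adjusted p 0.0258). With vehicle the WT libraries were at 1.93, 1.72, 17.2 and 19.1 CPM and with navitoclax at 9.65, 8.95, 1.98 and 16.7 CPM, below, within and above the 7.96 to 12.7 CPM of the 16 libraries of 3xTg. Its call was lost without 3xTg replicates 2, 3 or 4 or WT replicates 1, 3 or 4. Tuba1c, an alpha tubulin, was at 0.695, 0.647, 0.727 and 1.69 CPM in 3xTg and 13, 1.06, 6.27 and 8.48 CPM in WT (log2 -2.94 ± 0.69, adjusted p 0.017). WT replicate 2 lay within the range of 3xTg, and the call was lost without 3xTg replicates 1, 2 or 3 or WT replicate 1. Aox4, an aldehyde oxidase, was at 0.536, 0.554, 0.989 and 0.845 CPM in 3xTg and 1.25, 6.56, 4.35 and 2.69 CPM in WT (log2 -2.35 ± 0.58, adjusted p 0.023). The call was lost without 3xTg replicates 1, 2 or 4 or WT replicates 2 or 3. Of the 8 WT libraries without DQ, none lay past the nearest 3xTg DQ library for 133 of the 275 genes called higher and 94 of the 225 called lower. At least 4 did for 35 and 23. No share over all tested genes was counted beside these, so they do not show whether called genes are unusual in this.

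**Figure D4:**
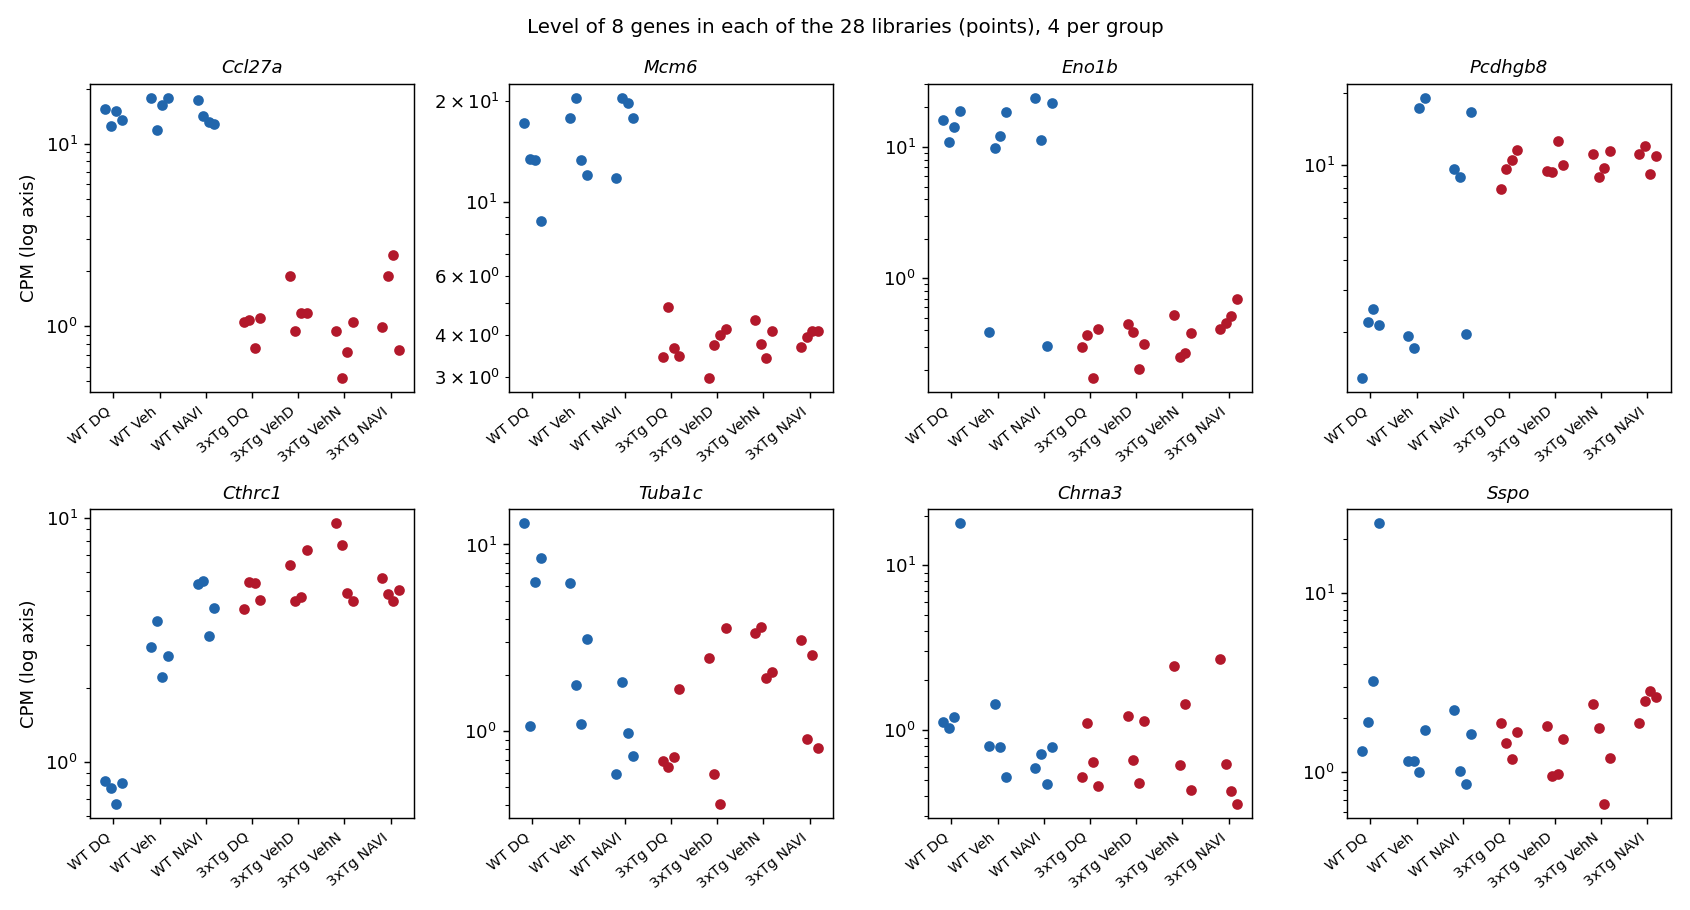
The 8 panels plot the level (CPM, log axis) of 1 gene each in all 28 libraries, 4 points a group, with WT in blue and 3xTg in red. Ccl27a and Mcm6 separate the genotypes in every library; Eno1b and Pcdhgb8 split the WT libraries; Cthrc1 is low in the 4 WT DQ libraries alone; Chrna3 and Sspo are high in WT DQ replicate 4.

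The remaining large rises were in genes of low level. Tgm1, a transglutaminase, was at 1.37, 2.31, 1.28 and 1.21 CPM in 3xTg and 0.306, 0.230, 0.440 and 0.449 CPM in WT (log2 2.10 ± 0.47, adjusted p 0.0129); without 3xTg replicate 2 its difference was 1.84 and the call was lost (adjusted p 0.0564). Glp2r, the receptor for glucagon-like peptide 2, was at 5.92, 7.83, 6.34 and 8.5 CPM and 3.24, 1.5, 1.19 and 1.61 CPM (log2 1.91 ± 0.46, adjusted p 0.0193). Cd22, an inhibitory receptor that binds sialic acid, was at 2.2, 2.24, 1.51 and 2.85 CPM and 0.656, 0.230, 0.440 and 1.03 CPM (log2 1.89 ± 0.47, adjusted p 0.0248). Anxa8, an annexin, was at 2.54, 2.52, 1.74 and 1.18 CPM and 0.656, 0.518, 0.0777 and 0.925 CPM (log2 1.87 ± 0.48, adjusted p 0.0315). The groups did not overlap in these 4 genes. Leaving out 1 library ended the call of Glp2r (3xTg replicate 2 or 4, WT replicate 3 or 4), of Cd22 (3xTg replicate 1, 2 or 4, WT replicate 1, 2 or 3) and of Anxa8 (3xTg replicate 1, 2 or 3, WT replicate 1, 2 or 3). Among the falls, Tspan11, a tetraspanin, was at 0.576, 0.346, 0.553 and 0.700 CPM in 3xTg and 3.22, 2.91, 6.37 and 3.83 CPM in WT (log2 -2.90 ± 0.43, adjusted p 1.82e-04), with a call in all 18 settings.

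In some of the genes called lower 1 library of WT stood apart. Chrna3 and Chrnb3, subunits of nicotinic receptors that are abundant in the habenula, were at 1.12, 1.04, 1.19 and 18 CPM and at 1.75, 1.21, 0.725 and 10.4 CPM in WT, where replicate 4 stood apart, and at 0.516, 1.11, 0.640 and 0.459 CPM and 0.576, 0.601, 0.785 and 0.314 CPM in 3xTg. Sspo, a glycoprotein secreted beside the habenula by the subcommissural organ, was at 1.31, 1.9, 3.21 and 24.3 CPM in WT and 1.89, 1.46, 1.19 and 1.67 CPM in 3xTg. With all libraries the differences were -2.96 ± 0.80, -2.63 ± 0.72 and -2.30 ± 0.60 on the log2 scale (adjusted p 0.0406, 0.0451 and 0.0347). Without WT replicate 4 they were -0.72, -1.13 and -0.46 (adjusted p 0.651, 0.441 and 0.633), and leaving out any 1 library of 3xTg also ended these calls. Of the 225 genes called lower, 7 had a level in WT replicate 4 more than 2 times that of the next library of WT: the 3 above with Umodl1, Cubn, Lrrc55 and Gng8. Over all tested genes this held for 131 (0.8%). Counted likewise within their own group, 3xTg replicate 4 stood apart in 7 genes called lower, WT replicate 3 in 5 and WT replicate 1 in 3. Over all tested genes these libraries stood apart in 127 (0.776%), 56 (0.342%) and 67 (0.409%), in the same order. The summed level of the 16 thalamus and habenula genes was 571 CPM in WT replicate 4 and 690.5 CPM in WT replicate 1, above the other 6 libraries; its part in these falls was not tested.

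The next 5 genes, known from olfactory tissue, were picked after their values were seen because they were called lower, and no list of such genes was counted. Omp, the marker protein of olfactory sensory neurons, was at 0.0993, 0.115, 0.145 and 0.314 CPM in 3xTg and 0.831, 2.45, 1.42 and 1.8 CPM in WT (log2 -3.25 ± 0.61, adjusted p 0.003). Cyp2a5, a cytochrome P450 of nasal mucosa and liver, was at 0.119, 0, 0.0582 and 0.386 CPM and 0.853, 1.61, 2.75 and 2.69 CPM (log2 -3.77 ± 0.79, adjusted p 0.00752). Gfy, a Golgi protein of olfactory neurons, was at 0.0397, 0.0924, 0.0291 and 0.0483 CPM and 0.175, 0.633, 0.285 and 0.713 CPM (log2 -3.01 ± 0.67, adjusted p 0.0125). All 3 were low in every library, without overlap, and kept their calls in each of the 17 settings that tested them. Cyp2g1, a nasal P450 (log2 -4.19 ± 1.13, adjusted p 0.0401), and S100a5, a calcium-binding protein of olfactory neurons (log2 -3.60 ± 0.99, adjusted p 0.0459), lost their calls without any of 3xTg replicates 1 to 3 and in other settings. With vehicle the log2 differences of Omp, Cyp2a5, Gfy, Cyp2g1 and S100a5 were -0.97, 0.17, -1.19, -0.72 and 0.41, none of them called.

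To see whether the genotype difference under DQ was the one found without it, the same contrast was taken with vehicle (3xTg VehD against WT Veh) and with navitoclax, which share no library with the DQ comparison. With vehicle 623 genes were called (3.81%), 2.08% of all genes higher and 1.73% lower, and with navitoclax 979 (5.98%), 3.29% higher and 2.69% lower. Of the 500 DQ calls, vehicle shared 249 with the same sign (154 higher, 95 lower), which is 49.8% of the DQ calls and 40% of the vehicle calls, and 0 in the opposite direction. With navitoclax 176 were shared, 35.2% of the DQ calls and 18% of the navitoclax calls, again with 0 opposite, and 130 genes were called in all 3 comparisons. Of the 623 genes called with vehicle, 614 had the same sign with DQ (98.6%), and of the 979 called with navitoclax 757 did (77.3%). The members named first differed in the same direction with vehicle: App by 0.98, Thy1 by 1.59, Cst7 by 4.01, Clec7a by 2.96, Gfap by 1.40, C4b by 1.56 and Ccl27a by -3.62 on the log2 scale.

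**Figure D5:**
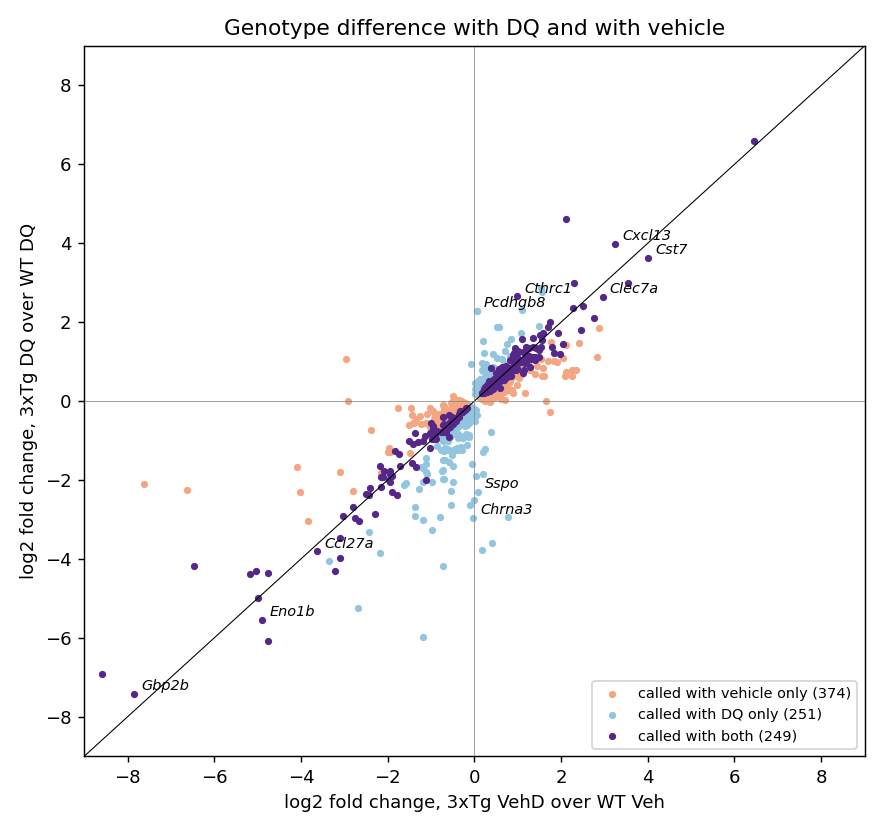
Each point is a gene called with DQ or with vehicle: the horizontal axis is the log2 difference of 3xTg VehD over WT Veh, the vertical axis that of 3xTg DQ over WT DQ, and the line marks equal differences. The 249 genes called with both (dark) lie in the lower left and upper right; of the 251 called with DQ alone (light blue), Chrna3 and Sspo lie near 0 on the vehicle axis.

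The difference between these differences was tested for every gene. Against vehicle, 0 genes (0.00%) passed in edgeR, 467 had an unadjusted p under 0.05, and DESeq2 called 1. The gene nearest to the threshold was Cthrc1, a secreted protein of fibroblasts and injured tissue (chr15:39076932-39087121). Its difference was 1.68 ± 0.32 (adjusted p 0.265 by edgeR and 0.00906 by DESeq2). With choroid plexus and thalamus scores as covariates, edgeR gave 2.11 for Cthrc1 (adjusted p 3.71e-05). The WT vehicle libraries are labelled Veh only, so a difference between vehicles cannot be told apart here from one between treatments. For the microglial markers the test gave -0.38 ± 0.53 (Cst7) and -0.31 ± 0.35 (Clec7a) and for App 0.14 ± 0.12, all on the log2 scale with their SE and adjusted p of 1. Mtmr12, a phosphatase-like adaptor (0.35 ± 0.09), Slc38a11, an amino acid transporter (-1.17 ± 0.31), Gm8773, a predicted gene, and Chrna6, a nicotinic receptor subunit (-3.71 ± 1.02), had the next smallest p in that order. No fold is given for Gm8773, which was at 0 in 3 of the 4 libraries of 3xTg under DQ and at most 0.0231 CPM in the other.

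Against navitoclax, 2 genes passed (0.0122%), both larger with DQ, while 4232 had an unadjusted p under 0.05; DESeq2 called 75 and limma-voom 1861, and without WT replicate 2 edgeR called 44. Cthrc1 was at 4.21, 5.45, 5.38 and 4.61 CPM in 3xTg and 0.831, 0.777, 0.673 and 0.819 CPM in WT under DQ (log2 2.66 ± 0.24, adjusted p 5.22e-08). In WT it was at 2.95, 3.78, 2.23 and 2.72 CPM with vehicle and at 5.32, 5.52, 3.28 and 4.28 CPM with navitoclax, so the 4 WT DQ libraries were the lowest of all 28. Its difference from the navitoclax contrast was 2.53 ± 0.31 (adjusted p 3.47e-04) and passed in each of the 17 settings run for it. Mtmr12 was at 68.7, 78.5, 69.8 and 70.5 CPM in 3xTg and 52.2, 58.1, 50.0 and 50.2 CPM in WT under DQ, and at 76, 71.9, 69.2 and 81.9 CPM in WT with navitoclax. Its difference of 0.54 ± 0.09 (adjusted p 0.0111) missed the threshold without WT replicate 3 (adjusted p 0.0513) or 4 (adjusted p 0.0501) and with choroid plexus and thalamus scores as covariates (adjusted p 0.0813).

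Both genes lie on chromosome 15, as did the next in order. Nudcd1, a nuclear distribution gene, differed between the contrasts by 0.74 ± 0.14 (adjusted p 0.061) and Polr2k, a subunit shared by the RNA polymerases, by 0.76 ± 0.14 (adjusted p 0.0793). Hdac8, a histone deacetylase on chromosome X, differed by 0.40 ± 0.08 (adjusted p 0.0966). Under DQ, Polr2k was at 14, 13.9, 16.3 and 16.5 CPM in 3xTg and 10.1, 9.18, 7.79 and 6.97 CPM in WT (log2 0.83 ± 0.10, adjusted p 1.42e-05) and Nudcd1 at 23.2, 25.2, 28.3 and 27 CPM and 17.5, 20.3, 16.7 and 14.7 CPM (log2 0.59 ± 0.10, adjusted p 8.47e-04). Chromosome 15 had the highest share of called genes of any chromosome with DQ, 5.96%, against 3.05% of all genes, and X the lowest, 0.733%. Between 35000001 and 40000000 on chromosome 15, 5 of 27 genes were called (18.5%). All were higher: Polr2k, Rrm2b, Baalc, Fzd6 and Cthrc1, with differences of 0.83, 0.41, 0.27, 0.69 and 2.66. This stretch was also picked after the calls were seen. On the same chromosome, the one from 70000001 to 75000000 had a larger share, 22.7%. Rrm2b, a ribonucleotide reductase subunit, lost its call without 3xTg replicate 2 or WT replicate 4. Baalc lost it without 3xTg replicate 3 or 4 or WT replicate 1 or 4, and Fzd6, a Wnt receptor, without any 1 library but WT replicate 4. In the stretch from 35000001 to 40000000, 2 genes were called with vehicle and 1 with navitoclax.

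Elsewhere on chromosome 15, Erich5, a glutamate-rich protein, fell, at 2.36, 2.84, 2.38 and 1.96 CPM in 3xTg and 8.93, 11.2, 9.22 and 8.9 CPM in WT (log2 -2.0 ± 0.23, adjusted p 2.95e-06), with vehicle at -1.11 and with navitoclax at -0.57. Rpl3, the 1 gene called of 27 ribosomal proteins, was at 443, 420.3, 422 and 459 CPM in 3xTg and 323, 365, 374 and 356 CPM in WT (log2 0.30 ± 0.05, adjusted p 0.00232; 0.0868 without WT replicates 1 and 4 together). The other WT libraries held 383, 392, 445 and 446 CPM with vehicle and 432, 434, 447 and 436 CPM with navitoclax. The WT DQ libraries of Rpl3 were thus the lowest of the 12 of WT, and the 8 others of WT reached into the range of 3xTg.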

How the data were processed

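Poly(A) RNA of hippocampus was sequenced as stranded libraries with 100-base paired reads (NovaSeq), per the labels' protocols. The authors deposited 1 table of raw read counts per gene for all 28 libraries, with 0 columns outside the labelled samples. STAR, Subread and featureCounts are named with the mm10 build, per the submitters' processing notes. Not given in the sources used here were their versions, the strand setting and the annotation. The table held 24062 genes; filterByExpr of edgeR removed 7693 with low counts and 16369 were tested.

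Counts of all 28 libraries, in 7 groups of 4, entered 1 quasi-likelihood fit with TMM scaling (R 4.3.3, edgeR 4.0.16), a procedure tested on simulated data. Contrasts were 3xTg against WT with DQ, with vehicle and with navitoclax, and the differences of the first from the other two. The SE is the log2 difference over the root of F. Alternatives used limma 3.58.1, DESeq2 1.42.0, other scaling and filters, fewer libraries, a replicate block, tissue scores and GC trends (GC content was known for 15590 genes, positions for 15467, from RefSeq). Pairs of libraries within a DQ group differed by a chi-square per degree of freedom of 13.7 to 59.3, more than counting noise alone gives. The precision of low genes is set by their counts: at 0.1 CPM a library holds few reads.

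Named genes are the 12 largest rises and 12 largest falls (mean log2 CPM 0 or more), fixed genes (App, Mapt, Thy1, Cst7, Clec7a, Trem2, Gfap, C4b, Cdkn1a, Cdkn2a), up to 4 members with the smallest p of each list with at least 3 calls, and the 5 smallest p of each difference of contrasts; other genes named were chosen after their values were seen. The comparison and the 40 gene lists were chosen with earlier results of these data known. Some genes that the rule selects are not reported here.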

Additional observations from a re-analysis of the deposited data

Results flagged for a closer look

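In 218 groups of 4 libraries (a named gene in 3xTg or WT under DQ), 17 values stood apart from the other 3 libraries of their group. The gap had to be more than 0.829 of the group's range. Chance gives about 1 in 20 groups if values are normally distributed. Whether these CPM values are was not tested, and some of the genes have few counts. Replicate 4 of WT was high in Chrna3 (17.96 CPM), Chrnb3 (10.38 CPM) and Sspo (24.28 CPM). Replicate 2 of 3xTg was high in Tgm1 (2.31 CPM), S1pr3 (28.18 CPM), Mcm6 (4.851 CPM), Lct (41.49 CPM) and Gm8773 (0.0231 CPM, the 1 library of its group above 0). Replicate 4 of 3xTg was high in Ctse (7.097 CPM), Tuba1c (1.69 CPM) and Cyp2g1 (0.338 CPM), and replicate 3 was low in Ccl27a (0.7561 CPM). Replicate 1 of WT was apart in Lct (37.83 CPM), Mcm4 (13.56 CPM) and Cdkn2a (0 CPM). Replicate 2 of WT was high in Erich5 (11.22 CPM) and replicate 3 of WT in Fcer1g (9.504 CPM).

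For 2 genes the genotype difference with DQ was larger than that with navitoclax by a test of the difference itself in edgeR: Cthrc1 by 2.53 (adjusted p 3.47e-04) and Mtmr12 by 0.542 (adjusted p 0.0111), both on the log2 scale. Mtmr12 missed the threshold without WT replicate 3 (adjusted p 0.0513) or 4 (0.0501) and with tissue scores as covariates (0.0813).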

How the results depend on the processing

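The 103 named genes called with DQ gave 1844 values over 18 alternatives: 1438 kept direction and call, 406 kept direction without the call, and 0 changed direction; 68 genes lost the call in at least 1 alternative. The 500 calls with DQ became 1545 with limma-voom and 201 without the 2 WT libraries of high thalamus score, an alternative chosen after seeing the data, and ran from 269 to 615 with 1 library left out. They became 735 with DESeq2, 657 with the GC trend removed, 442 without the low count filter and 374 with a mean of at least 50 counts. With only the libraries of the comparison 418 were called, and 291 of the 500 were kept. With tissue scores as covariates 370 were called, and 320 of the 500 were kept. The count against the vehicle contrast, 0, was 1 with DESeq2 and 1 with tissue scores as covariates. The count against the navitoclax contrast, 2, was 75 with DESeq2, 1861 with limma-voom, 8 with only the libraries of the comparison, 5 with the replicate block, 1 with tissue scores, 4 with the GC trend removed, and 1 to 44 with 1 library left out. The vehicle count, 623, was 2142 with the mean of VehN and VehD. Cdkn1a, at 0.06 and between -0.0251 and 0.216 with 1 library left out, changed sign to -0.0149 without WT replicate 1, -0.0251 without WT replicate 2 and -0.0333 without the 2 WT libraries. The difference of Clec7a from the navitoclax contrast, between -0.0881 and 0.146 with 1 library left out, changed sign to -0.157 with the GC trend removed and -0.0881 without WT replicate 1. The deviations of same-numbered libraries of the 2 genotypes had correlations of -0.0901, 0.0593, 0.271 and 0.0664. Of the 3xTg libraries, only replicate 3 correlated best with the WT library of its own number. With so few libraries these correlations cannot decide whether the numbers pair them. The replicate block gave 611 calls with DQ. The causes were not tested. Depth limits genes under about 1 count per library, such as Cdkn2a.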
